A study of Vitis vinifera with 36 samples.

Results

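The stilbene synthase genes of Cabernet Sauvignon were followed in ripening berries. They were taken as every gene of the deposited table whose Pfam annotation contains a chalcone and stilbene synthase domain and whose identifier belongs to the tandem clusters VIT_216s0100 or VIT_210s0042. This rule uses no expression value, and it found 40 of the 25280 genes listed, 31 on chromosome 16 and 9 on chromosome 10. The berries came from field-grown vines of a single season that were sprayed while the fruit was hard and green, at E-L 33 of the modified Eichhorn-Lorenz scale. ABA1000 received 1000 mg/L abscisic acid, the hormone that accompanies the onset of ripening. NAA100 received 100 mg/L 1-naphthaleneacetic acid, a synthetic auxin that delays ripening. The control was sprayed with the Tween 20 wetting agent alone, which both hormone solutions also contained, and every spray was repeated later on the same day. Berries were sampled at E-L 34, 35, 36 and 38, that is from softening to harvest ripeness. They came from 3 plots per treatment with many berries pooled per plot, which gave 12 groups of 3 libraries. Since the sprays shifted the pace of ripening, a given stage was reached on different dates in the different treatments. In a comparison at the same stage, treatment and calendar date can therefore not be told apart. Within a treatment, stage and date cannot be told apart either.

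Stilbene synthases join p-coumaroyl-CoA with malonyl-CoA to make resveratrol, the parent compound of the grape stilbenes. Chalcone synthase uses the same substrates for the first step of flavonoid and anthocyanin synthesis, and the enzymes belong to the same protein family. Stilbenes are known in grapevine as phytoalexins, made after fungal attack, ultraviolet light or wounding, and they also accumulate in the skin of healthy ripening berries. The genes form large tandem arrays of near-identical copies in this species. MYB14 is known as a transcription factor that activates stilbene synthase promoters.

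The chromosome 16 genes lay between 16238950 and 16711905, a stretch of 473 kb, with 24 genes on the minus strand and 7 on the plus strand in the coordinates of the table. The chromosome 10 genes lay between 14216111 and 14306520, a stretch of 90.4 kb, with 8 on the plus strand and 1 on the minus strand. The study mapped its reads to the grape genome of the CRIBI site, and the version behind these coordinates is not given for the RNA-seq in the sources used here. By the nearest UniProt entry that the table gives, 14 genes were closest to Stilbene synthase 4, 11 to Stilbene synthase 1, 5 to Stilbene synthase 3, 4 each to Stilbene synthases 2 and 5, and 2 to Stilbene synthase 6. The gene models spanned from 188 to 29522 bp. Of the 40 models, 4 were shorter than 600 bp, and for 4 the table listed the C-terminal domain in place of the N-terminal one. The copies are close paralogs, so that fragments may have been split between them by the authors' counting, and the value of a single copy is less certain than the sum over all copies. VIT_216s0100g01130 is the copy that matches the RefSeq symbol VINST1.

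Values are FPKM, fragments scaled to transcript length and to the mapped fragments of the library, as deposited. For the tests, log2(FPKM + 1) was fitted with limma over all 12 groups, and a gene was called when its adjusted p did not exceed 0.01 and its log2 ratio was 1 or more in either direction. Fold changes on this scale understate the change of genes below about 1 FPKM. A gene was tested when at least 3 libraries reached 1 FPKM. This left 17598 genes, among them 33 of the 40 stilbene synthase genes, 29 on chromosome 16 and 4 on chromosome 10. Because control berries at E-L 38 held the highest values, a gene that passed only through that group had to differ from the others. Without the 3 libraries of that group, 31 of the 40 genes would have passed, and the exceptions among the tested genes were VIT_216s0100g01160 and VIT_210s0042g00850. Without the ABA1000 libraries of E-L 38, VIT_216s0100g01100, VIT_210s0042g00870 and VIT_210s0042g00890 would not have passed, and without the control libraries of E-L 36 VIT_210s0042g00850 would not. The other 7 genes were VIT_216s0100g00760, VIT_216s0100g01040, VIT_210s0042g00860, VIT_210s0042g00880, VIT_210s0042g00910, VIT_210s0042g00920 and VIT_210s0042g00930. Of these, VIT_216s0100g01040 held 11.6 FPKM in control replicate 1 of E-L 38 and 5.34 FPKM in replicate 3. VIT_210s0042g00920 held 9.73 and 2.87 FPKM in the same libraries. VIT_210s0042g00910 was above 0 in 1 of the 36 libraries, at 0.0317 FPKM.

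Library totals ranged from 489454 to 596970 FPKM, and the Pearson r between libraries of a group, over genes, from 0.964 to 0.993. Low values were whole multiples of a common step in each gene, which put the relative depth of the libraries between 0.932 and 1.03, and 1 fragment was worth from 0.0200 to 0.193 FPKM in the 26 stilbene synthase genes where the step could be read. The berry tissue was checked by markers. Thaumatin-like proteins, abundant in ripening pericarp, summed to between 481 and 10392 FPKM. VvMYBA2 (VIT_202s0033g00390), an activator of anthocyanin synthesis in red skin, averaged 39.6 FPKM, whereas the anthocyanidin glucosyltransferase VIT_216s0039g02230 was listed at or near 0, with a mean of 0.00137 FPKM. The 6 oleosin genes, markers of seed, summed to between 7.42 and 301 FPKM. In whole-tissue libraries such as these, fewer cells of a type and less RNA per cell cannot be told apart.

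Stilbene synthase transcripts were scarce until coloration and high in only part of the harvest-ripe control berries. The 40 genes together summed to 13.2, 30.9 and 11.9 FPKM in the 3 control libraries of E-L 34 and to 12.2, 32.0 and 16.7 FPKM at E-L 35. At E-L 36 the control libraries held 85.4, 60.7 and 64.0 FPKM, and no library of this stage overlapped those of E-L 35. At E-L 38 they held 1708, 34.8 and 779 FPKM. Replicates 1 and 3 thus lay above every other library of the study, while replicate 2 lay below all 3 control libraries of E-L 36. Expressed as a share of all FPKM in the library, the stilbene synthases took 0.326%, 0.00648% and 0.150% in these 3 libraries. Of the 40 genes, 38 reached 1 FPKM in replicate 1, 12 in replicate 2 and 36 in replicate 3.

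**Figure D1:**
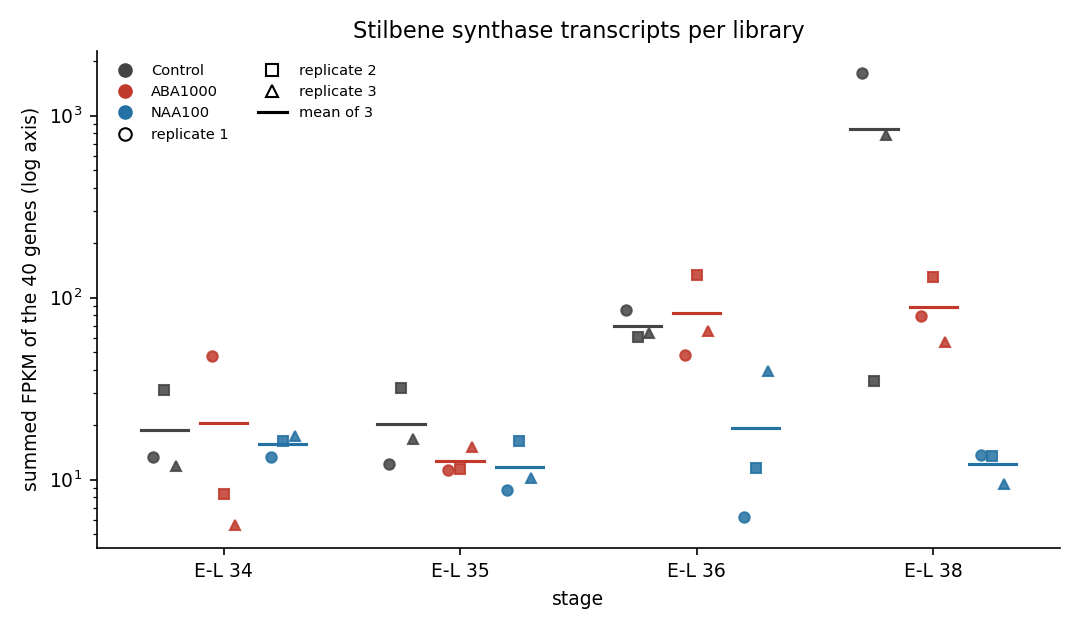
Summed FPKM of the 40 stilbene synthase genes in each of the 36 libraries (vertical log axis) by stage, with colours for the treatments, symbols for the replicate numbers and a bar for the mean of 3 libraries. The control at E-L 38 spans from 34.8 to 1708 FPKM, and the NAA100 libraries of that stage lie between 9.41 and 13.7 FPKM.

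The copies moved together. In 39 of the 40 genes the highest of the 36 values was that of control replicate 1 at E-L 38, and in 38 genes replicate 3 of that group came next. Over the 36 libraries the Pearson r of log2(FPKM + 1) between 2 tested copies had a median of 0.949 over the 528 pairs. It was 0.869 when the control libraries of E-L 38 were left out, and 0.773 for the deviations from the group means of the remaining 33 libraries. These are descriptions over libraries that share groups and over copies that may share fragments. Least like the others in the 33 libraries was VIT_216s0100g01100, annotated as stilbene synthase 1, with a median r of 0.453 to the other copies. It came closest to VIT_216s0100g01070, annotated as stilbene synthase 1-like, with an r of 0.849. The chromosome 10 copies VIT_210s0042g00870 and VIT_210s0042g00890, also nearest to Stilbene synthase 1, had median r values of 0.570 and 0.676, and the short model VIT_210s0042g00850 of the same cluster and class had 0.488.

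**Figure D2:**
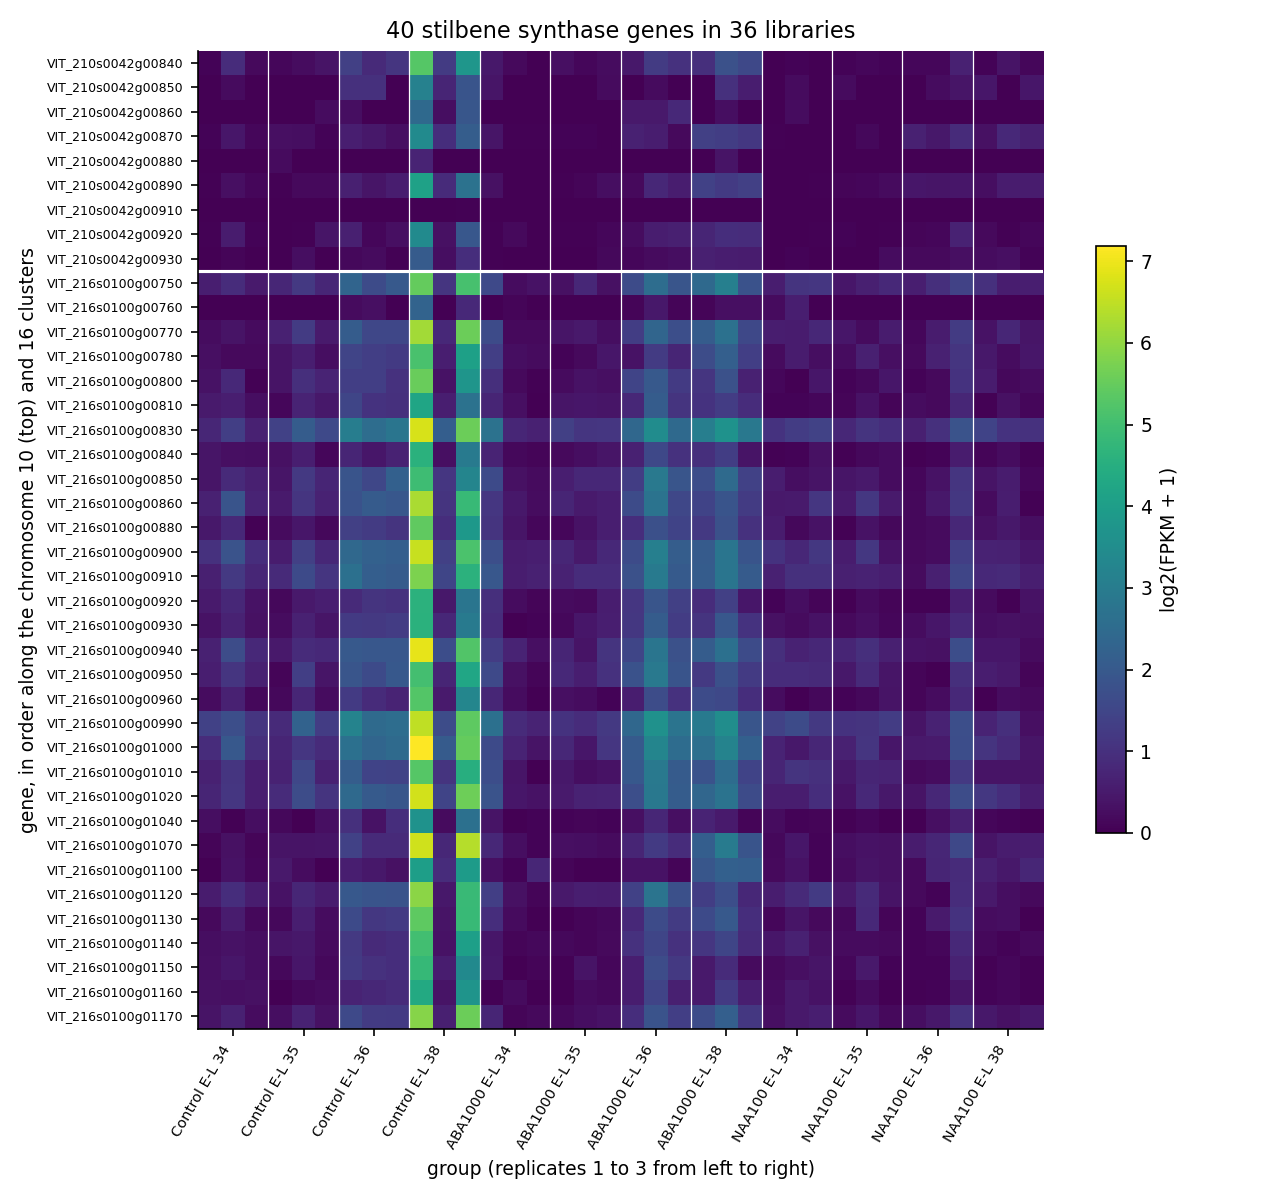
Expression as log2(FPKM + 1) (colour scale) of the 40 genes (rows, in order along the chromosome 10 cluster above the white line and the chromosome 16 cluster below it) in the 36 libraries (columns, 3 per group). The columns of control replicates 1 and 3 at E-L 38 are bright in nearly all rows, and VIT_210s0042g00910 is dark throughout.

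The 10 copies with the highest mean over all libraries all lay on chromosome 16, and their means ranged from 3.79 to 7.26 FPKM. VIT_216s0100g01000, annotated as stilbene synthase 4-like, had the highest mean. In the control it held 0.888, 2.95 and 0.967 FPKM at E-L 34 and 0.680, 1.21 and 0.843 FPKM at E-L 35. It held 5.27, 4.06 and 4.61 FPKM at E-L 36 and then 144, 3.19 and 44.2 FPKM at E-L 38. The 3 libraries of E-L 36 lay above all 6 libraries of the earlier stages, and those of E-L 38 lay on both sides of them. VIT_216s0100g00830, annotated as stilbene synthase 5-like, showed the same order, with 7.31, 4.94 and 5.87 FPKM at E-L 36 and 107, 3.45 and 46.6 FPKM at E-L 38. VIT_216s0100g00990, annotated as stilbene synthase 2, held 8.34, 4.64 and 4.95 FPKM at E-L 36 and 89.6, 2.20 and 41.1 FPKM at E-L 38. In each of these copies replicate 2 of the ripe control was the lowest of the 6 libraries of both stages.

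Other highly expressed copies differed in how far replicate 3 lay from replicate 1. VIT_216s0100g01070 held 99.6, 0.752 and 83.2 FPKM in the control at E-L 38, so that replicates 1 and 3 were close. VIT_216s0100g00940, annotated as stilbene synthase 4-like, held 121, 2.26 and 36.7 FPKM. VIT_216s0100g01020, whose best match in the protein database was stilbene synthase 3, held 102, 1.79 and 47.2 FPKM. VIT_216s0100g00900, annotated as stilbene synthase 4, held 94.9, 1.58 and 34.2 FPKM, and replicate 1 stood well above replicate 3 there. VIT_216s0100g00770, annotated as stilbene synthase 3, held 72.5, 0.785 and 46.4 FPKM. VIT_216s0100g00860, nearest to Stilbene synthase 4, held 76.5, 1.12 and 27.6 FPKM. The last of the 10, VIT_216s0100g00910 (stilbene synthase 5), held 53.3, 1.85 and 23.3 FPKM. Over the 33 tested copies the ratio of replicate 1 to replicate 3 ranged from 1.05 to 4.25, with a median of 2.77.

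This ratio differed between the annotation classes. Summed by the nearest UniProt entry, it was 1.51 for Stilbene synthase 1, 1.52 for Stilbene synthase 6, 1.71 for Stilbene synthase 3, 1.97 for Stilbene synthase 2, 2.23 for Stilbene synthase 5 and 3.0 for Stilbene synthase 4. The values rest on 2 libraries and are a description. The 14 genes nearest to Stilbene synthase 4 held 792, 14.8 and 264 FPKM in the 3 ripe control libraries, the largest sum of any annotation class in replicates 1, 2 and 3. The 11 genes nearest to Stilbene synthase 1 held 259, 5.56 and 171 FPKM.

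**Figure D3:**
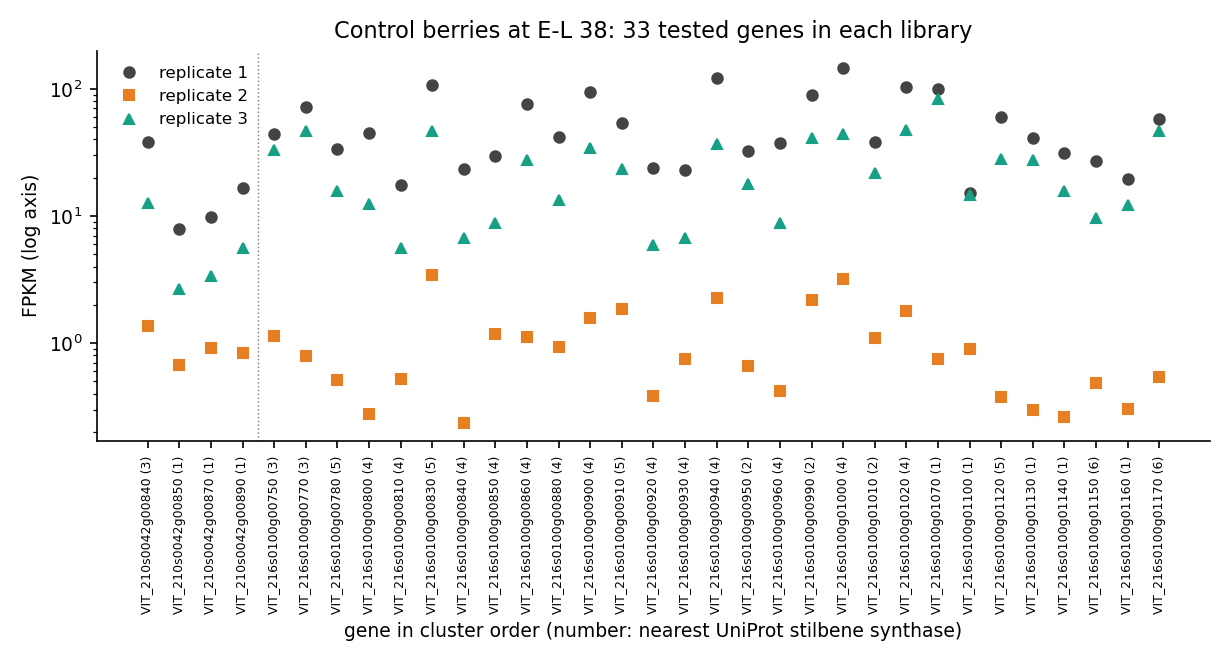
FPKM (vertical log axis) of the 33 tested genes in the 3 control libraries of E-L 38, in cluster order with chromosome 10 left of the dotted line and the number of the nearest UniProt stilbene synthase in parentheses. Replicate 2 is the lowest in all 33 genes, and the distance between replicates 1 and 3 varies from 1.05 to 4.25-fold.

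The spread among the ripe control libraries was large beside that of other genes. The range over the 3 libraries exceeded 2 on the log2(FPKM + 1) scale in all 33 tested copies, against 278 of the 17598 genes tested (1.58%). Replicate 1 was the highest and replicate 2 the lowest of the 3 in each of the 33. In every other group at most 1 of the 33 copies had a range above 2. Among the 100 genes with the widest range in this group, 29 were stilbene synthases and 6 were genes of the PR-10 family, small proteins known to accumulate with defence responses. Of the PR-10 family, VIT_205s0077g01540 (major allergen Pru av 1-like) held 341, 2.95 and 285 FPKM and had the widest range of all genes tested. The median residual SD on the log2 scale was 0.754 for the 33 copies and 0.157 for all genes tested, and it was 0.328 and 0.156 when the control libraries of E-L 38 were left out. The joint fit assumes the same spread of a gene in all groups, and p-values measure only the spread between these plot samples.

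In the control, the step from E-L 35 to E-L 36 gave no called copy by limma (0.79% of all genes tested were called higher and 3.87% lower), with 1 of 33 at an unadjusted p under 0.05, although 28 of the 33 had higher values in all 3 libraries of E-L 36 (11.5% of all genes tested did). The median log2 fold change was 0.90, against −0.16 for all genes. In a fit without the control libraries of E-L 38, 9 of the 33 were called higher (0.915% of all genes), and when only the 6 control libraries of both stages were fitted 6 were (0.778%). From E-L 36 to E-L 38, 27 of the 33 copies were called higher and none lower (9.47% and 7.76% of all genes tested), with a median log2 fold change of 2.02 against 0.15 for all genes. The groups did not overlap in 3 of the 33, beside 43.5% of all genes tested that were higher without overlap. Among the 33, VIT_216s0100g01160 and VIT_210s0042g00850 were tested only through the control libraries of E-L 38. The count of 27 called copies fell to 5 without replicate 1 of the ripe control and to 9 without replicate 3. It rose to 33 without replicate 2 of the ripe control. It fell to 19, 15 and 13 without replicates 1, 2 and 3 of E-L 36, and to 0 when only these 6 libraries were fitted.

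VIT_216s0100g01070 rose most between E-L 36 and E-L 38 in the control, from 1.60, 0.823 and 0.817 FPKM to the values given above (log2 ratio 3.58 with SE 0.77, adjusted p = 1.8e-04 by limma). VIT_216s0100g01170, annotated as stilbene synthase 6, went from 1.99, 1.37 and 1.34 FPKM to 57.9, 0.545 and 46.3 FPKM (log2 ratio 2.67, adjusted p = 0.0013 by limma). VIT_216s0100g00940 rose by 2.65 on the log2 scale (adjusted p = 0.0011 by limma). In all 3 the lowest ripe library lay below the lowest of E-L 36. Against E-L 34, all 33 tested copies were called higher at E-L 38 (9.48% of all genes tested were, and 18.0% were lower), with log2 fold changes from 1.85 to 4.45, and 20 of them did not overlap (34.3% of all genes were higher without overlap). The largest rises were those of VIT_216s0100g01070 (4.45), VIT_216s0100g00770 (3.92) and VIT_216s0100g00830 (3.90). None of the 33 was called when only these 6 libraries were fitted. VIT_216s0100g01160 and VIT_210s0042g00850, tested only through the ripe control libraries, had to be high there. From E-L 34 to E-L 35 no copy was called by limma (0.977% of all genes tested were higher and 1.72% lower), none had an unadjusted p under 0.05, and the median log2 fold change was 0.01.

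ABA did not change the level of the stilbene synthases detectably up to E-L 36. The sums were 47.6, 8.38 and 5.61 FPKM in the ABA1000 libraries of E-L 34, 11.3, 11.4 and 15.0 FPKM at E-L 35 and 48.7, 134 and 65.2 FPKM at E-L 36, and each of these groups overlapped the control of its stage. By limma, 0 of the 33 copies were called at each of these stages, with 0 at an unadjusted p under 0.05. Among all genes tested, 0.136% were called higher and 0.551% lower at E-L 34, 0.847% and 0.608% at E-L 35, while 0.489% were higher and 0.176% lower at E-L 36. At E-L 35, 7 copies were lower without overlap, beside 24% of all genes. Median log2 fold changes were −0.05, −0.15 and 0.08. The median standard error was 0.58 in the joint fit, so that a change of 1 on this scale was under 2 standard errors and not detectable there. That error takes in the spread of the control libraries of E-L 38. The median residual SD of the copies was 0.754 with these libraries and 0.328 without them. A fit without them called no copy at these stages either.

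At E-L 38 the ABA1000 libraries held 79.4, 131 and 57.3 FPKM of stilbene synthase transcripts, a mean of 89.1 ± 37.5 (SD, n = 3) against 841 ± 838 in the control. The SD of the control was close to its mean, and the 3 ABA libraries lay between control replicate 2 and control replicate 3. All 33 log2 fold changes were below 0 and all had an unadjusted p under 0.05, but only 3 copies were called lower (0.466% of all genes tested were, and 0.182% were higher), and in none did the groups separate (10.9% of all genes were lower without overlap). VIT_216s0100g01150, annotated as stilbene synthase 6, held 0.405, 0.863 and 0.162 FPKM against 27.2, 0.482 and 9.71 FPKM (log2 ratio −2.40 with SE 0.52, adjusted p = 0.0043 by limma). VIT_216s0100g01160, annotated as stilbene synthase 1-like, held 0.434, 1.31 and 0.529 FPKM against 19.7, 0.304 and 12.3 FPKM (log2 ratio −2.05, adjusted p = 0.0098 by limma). Control replicate 2 lay among the ABA libraries in the former and below them in the latter. The short model VIT_210s0042g00850 held 0, 0.990 and 0.504 FPKM against 7.88, 0.667 and 2.67 FPKM (log2 ratio −1.39, adjusted p = 0.0093 by limma). Of the 3 called copies, VIT_216s0100g01160 and VIT_210s0042g00850 were tested only because of their values in this control group, so that they had to differ from other groups. The count was 33 without control replicate 2 and 0 when any other of the 6 libraries was left out, and it was 0 when only these 6 libraries were fitted, where 0 of all genes tested were called. The oleosin genes of seed summed to between 7.42 and 13.1 FPKM in ABA1000 and to between 17.6 and 32.1 FPKM in the control. Genes with the chlorophyll antenna domain summed to between 548 and 712 against between 492 and 517 FPKM. Neither list overlapped. Most of the antenna sum in the control came from VIT_205s0020g04110, annotated as an uncharacterized protein, at 355, 337 and 395 FPKM. The sum is therefore no measure of green tissue. The part of both lists in the difference was not tested.

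Within the ABA1000 series the sums of E-L 38 lay above all 3 of E-L 34, and 20 of the 33 copies did not overlap between these stages (39.4% of all genes tested were higher without overlap). Called were 3 copies, all higher (9.93% of all genes tested were, and 14.4% were lower). VIT_216s0100g01100 rose from 0.238, 0.0575 and 0.713 FPKM to 2.75, 3.61 and 3.43 FPKM (log2 ratio 1.70 with SE 0.42, adjusted p = 8.2e-04 by limma). VIT_210s0042g00890 rose to 1.61, 1.32 and 1.58 FPKM from 0.261, 0 and 0 FPKM (log2 ratio 1.21, adjusted p = 0.0058 by limma). VIT_210s0042g00870 rose to 1.56, 1.46 and 1.23 FPKM from 0.332, 0.0267 and 0.0276 FPKM (log2 ratio 1.11, adjusted p = 0.0023 by limma). All 3 reached 1 FPKM only in ripe control replicates 1 and 3 and in the ABA1000 libraries of E-L 38, so that they were tested only through the group in which they were called high, and their count is no support for a rise of the family. The count was 21 without the control libraries of E-L 38 (10.1% of all genes), 9 when only these 6 libraries were fitted (9.94% of all genes), 5, 1 and 1 without replicates 1, 2 and 3 of E-L 34, and 2 without any 1 library of E-L 38.

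Single copies differed in the last step of the ABA series, which was not among the comparisons tested. Between E-L 36 and E-L 38 the sum over all copies moved from 82.6 ± 45.1 to 89.1 ± 37.5 FPKM (SD, n = 3). By annotation class the ratio of the later to the earlier sum was 2.42 for Stilbene synthase 1, 1.5 for Stilbene synthase 3, 1.14 for Stilbene synthase 5, 0.923 for Stilbene synthase 6, 0.876 for Stilbene synthase 4 and 0.743 for Stilbene synthase 2. The classes were not uniform. Among the copies nearest to Stilbene synthase 1, the ratio of means was 15.5 for VIT_216s0100g01100 and 4.56 for VIT_216s0100g01070 but 0.991 for VIT_216s0100g01140 and 0.808 for VIT_216s0100g01160. VIT_216s0100g01100, VIT_210s0042g00870 and VIT_210s0042g00890 of this class were tested only through the ABA1000 libraries of E-L 38. They had to be higher there, and their ratios are no support for a difference between copies. VIT_216s0100g00780, nearest to Stilbene synthase 5, had a ratio of 3.14 without overlap. Of the 33 tested copies, 17 had a higher mean at E-L 38. The groups did not overlap in some of the higher copies and in VIT_216s0100g00950, which was lower. The share of all genes that separated in this step was not counted, so this is a description only. VIT_216s0100g01070 was among the copies whose groups separated, with 0.664, 1.32 and 0.865 FPKM at E-L 36 and 3.47, 6.90 and 2.65 FPKM at E-L 38. VIT_216s0100g01000, in contrast, held 3.08, 8.71 and 4.82 FPKM and then 5.14, 8.35 and 3.58 FPKM.

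Berries sprayed with NAA stayed low in stilbene synthase transcripts through to harvest ripeness. Their libraries held 13.3, 16.3 and 17.5 FPKM at E-L 34 and 8.72, 16.2 and 10.3 FPKM at E-L 35, within or just below the range of the control. At E-L 36 they held 6.20, 11.5 and 39.7 FPKM, all below the lowest control library of that stage (60.7 FPKM). At E-L 38 they held 13.7, 13.4 and 9.41 FPKM, all below the lowest control library (34.8 FPKM) and all ABA1000 libraries. Between E-L 34 and E-L 38 no copy was called in the NAA100 berries by limma (7.85% of all genes tested were higher and 24% lower), with 0 at an unadjusted p under 0.05 and a median log2 fold change of −0.05 against −0.21 for all genes.

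Against the control of the same stage, no copy was called by limma at the first pair of stages, and none had an unadjusted p under 0.05. Of all genes tested, 2.25% were called higher and 1.54% lower at E-L 34, while 1.28% were higher and 1.16% lower at E-L 35. At E-L 36 none was called either (9.05% of all genes were higher and 10.8% lower), 8 had an unadjusted p under 0.05, and 25 of the 33 were lower in all 3 NAA100 libraries than in all 3 control libraries (32.7% of all genes tested were). The median log2 fold change was −0.79, against 0.09 for all genes. VIT_216s0100g00990 held 0.291, 0.623 and 2.33 FPKM against 8.34, 4.64 and 4.95 FPKM at this stage (log2 ratio −1.83 with SE 0.70, adjusted p = 0.024 by limma). VIT_216s0100g00830 held 0.537, 0.999 and 2.57 FPKM against 7.31, 4.94 and 5.87 FPKM (log2 ratio −1.65, adjusted p = 0.025 by limma). Replicate 3 was the highest of the NAA100 libraries in both. The count of lower copies was 13 in a fit without the control libraries of E-L 38 (11% of all genes were called lower there), 9 when only these 6 libraries were fitted (11%) and 6 with a pseudocount of 0.1 (16.2%). Genes of the antenna list summed to between 647 and 876 FPKM in NAA100 at this stage. In the control they summed to between 390 and 460 FPKM, without overlap, and 4 of 23 were called higher and 10 lower in NAA100. Oleosins summed to between 39.0 and 83.4 against between 33.7 and 109.9 FPKM. The part of both lists in the difference was not tested.

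At E-L 38 all 33 tested copies were called lower in NAA100 than in the control (3.02% of all genes tested were, and 0.398% were higher). Log2 fold changes ranged from −4.27 to −1.57, with a median of −3.05 against −0.05 for all genes, and 31 of the 33 copies did not overlap (26.2% of all genes were lower without overlap). Of the 33, VIT_216s0100g01160 and VIT_210s0042g00850 were tested only through this control group, so that they had to differ from other groups. VIT_216s0100g00940 held 0.341, 0.359 and 0.154 FPKM against 121, 2.26 and 36.7 FPKM in the control (log2 ratio −4.27 with SE 0.67, adjusted p = 4.3e-05 by limma). VIT_216s0100g01000 held 1.11, 0.824 and 0.329 FPKM (log2 ratio −4.13 with SE 0.67, adjusted p = 5.7e-05 by limma). VIT_216s0100g01070 held 0.304, 0.457 and 0.502 FPKM (log2 ratio −4.11 with SE 0.77, adjusted p = 2.6e-04 by limma). In these 3 copies each NAA100 library lay below the lowest control library, and the control libraries themselves spread over more than 1 order of magnitude. The count ranged from 25 to 33 with any 1 of the 6 libraries left out, and was 0 when only these 6 libraries were fitted (0.619% of all genes were called lower there). The mean of the summed FPKM was 12.2 ± 2.40 in NAA100 (SD, n = 3). On the log2 scale the mean difference of the sums from the control was −4.90, and it was −3.78 without control replicate 1 and −6.59 without control replicate 2.

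The same libraries differed in the sums of oleosin and antenna genes. The 6 oleosin genes summed to between 70.9 and 124 FPKM in NAA100 at E-L 38 and to between 17.6 and 32.1 FPKM in the control. Of these 6, 1 was called higher (0.398% of all genes tested were), and the median log2 fold change was 0.26. Genes with the chlorophyll antenna domain summed to between 562 and 913 FPKM against between 492 and 517 FPKM, and 0 of 23 tested were called. Among the 3 ripe control libraries, oleosins summed to 25.0, 32.1 and 17.6 FPKM and antenna genes to 507, 492 and 517 FPKM. Replicate 2 was thus the highest for oleosins and the lowest for the antenna sum. Most of that sum came from VIT_205s0020g04110, annotated as an uncharacterized protein, at 355, 337 and 395 FPKM. The order of the antenna sums is therefore mainly that of 1 gene. The part of both lists in the difference between NAA100 and the control, or among the control libraries, was not tested.

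**Figure D4:**
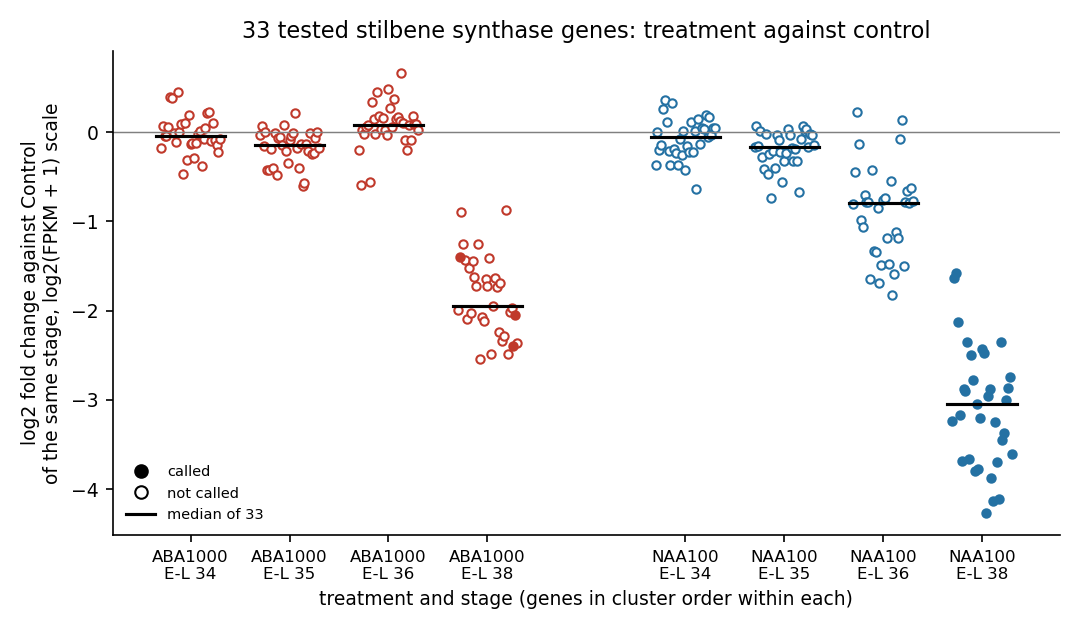
Log2 fold change against the control of the same stage (vertical axis, log2(FPKM + 1) scale) of the 33 tested genes, for ABA1000 and NAA100 at the 4 stages, with filled points for called genes and a bar for the median. All 33 points are filled and lie between −4.27 and −1.57 for NAA100 at E-L 38, and 3 are filled for ABA1000 at E-L 38.

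The change of a treatment effect between neighbouring stages was tested as an interaction. From E-L 36 to E-L 38 the effect of NAA became more negative in 6 of the 33 copies (11.0% of all genes tested were called in that direction and 8.49% in the other). These were VIT_216s0100g01070, VIT_216s0100g00940, VIT_216s0100g01100, VIT_210s0042g00840, VIT_210s0042g00870 and VIT_210s0042g00890. They are 3 of the 4 tested copies of chromosome 10 and 3 of 29 of chromosome 16. VIT_216s0100g01100, VIT_210s0042g00870 and VIT_210s0042g00890 held at most 0.525, 0.506 and 0.564 FPKM in the control at E-L 36. On the log2(FPKM + 1) scale little of a fall could show there. The same 3 copies passed the filter only with the ABA1000 libraries of E-L 38. The split by cluster is therefore a description only. All 33 interaction values were below 0 and 30 had an unadjusted p under 0.05. The count was 33 without control replicate 2 of E-L 38, 3 without replicate 1 or without replicate 3, and 4 without control replicate 2 or NAA100 replicate 3 of E-L 36. For ABA over the same step no copy was called by limma (0.511% of all genes were in the positive and 0.875% in the negative direction), 23 had an unadjusted p under 0.05, and 32 were called without control replicate 2 of E-L 38. Between the earlier stages no interaction was called for either treatment by limma, with 0 at an unadjusted p under 0.05. Of all genes, 0.551% (positive) and 0.403% (negative) were called for ABA over the first step and 0.421% and 0.256% over the second, and 1.19% and 1.29% for NAA over the first and 10.4% and 12.5% over the second. The comparisons of both treatments share the control libraries, so that their values are given side by side only.

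Upstream of the stilbene synthases, phenylalanine ammonia-lyase (PAL), the entry enzyme of phenylpropanoid synthesis, split into genes that moved with them and genes that did not. Of 22 genes with the PAL domain, 12 were tested. Of these, 9 were called lower in NAA100 than in the control at E-L 38 (3.02% of all genes tested were). The 9 were 7 genes of the VIT_216s0039 array on chromosome 16, VIT_208s0040g01710 and a gene on an unplaced scaffold. In the control, 7 of the 12 were called higher at E-L 38 than at E-L 36 (9.47% of all genes tested were). VIT_216s0039g01100 held 89.2, 12.01 and 50.8 FPKM in the 3 ripe control libraries and a mean of 2.21 ± 0.522 FPKM (SD, n = 3) in NAA100 (log2 ratio −3.63 with SE 0.46, adjusted p = 2.5e-06 by limma). Replicate 2 was again the lowest of the control libraries. The most abundant PAL gene, VIT_213s0019g04460, held 50.8 ± 3.58 FPKM in the ripe control and 72.7 ± 5.42 FPKM in NAA100, and was not called (log2 ratio 0.51, adjusted p = 0.51 by limma). It was called higher in NAA100 at E-L 36, with a log2 fold change of 1.53. VIT_213s0019g04460 and VIT_206s0004g02620 rose by 5.53 and 4.39 on the log2 scale between E-L 34 and E-L 38 in NAA100, where no stilbene synthase was called.

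Cinnamate 4-hydroxylase (VIT_206s0004g08150), the next enzyme of the pathway, held 98.9, 39.4 and 85.7 FPKM in the ripe control, lowest in replicate 2. It was not called in NAA100 at E-L 38 (log2 ratio −0.53, adjusted p = 0.36 by limma) and rose between E-L 34 and E-L 38 in the NAA100 berries by 3.16 on the log2 scale. Of 4 genes assigned to 4-coumarate-CoA ligase, which makes the CoA ester used by stilbene synthase, 2 were tested and none was called at E-L 38. The abundant one, VIT_206s0061g00450, assigned by its KEGG ortholog, held a mean of 49.8 FPKM over all libraries and fell by 1.54 on the log2 scale between E-L 34 and E-L 38 in NAA100.

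Chalcone synthase did not follow the stilbene synthases. Of the 6 other genes with the domain, 3 were tested, and VIT_205s0136g00260 (chalcone synthase 2) averaged 369 FPKM over all libraries. It held 257, 343 and 204 FPKM in the 3 ripe control libraries, highest where the stilbene synthases were lowest, and 370, 392.1 and 373 FPKM in NAA100 (log2 ratio 0.53 with SE 0.60, adjusted p = 0.59 by limma). None of the 3 was called in either treatment at E-L 36 or E-L 38. Between E-L 34 and E-L 38 in NAA100, VIT_205s0136g00260 rose by 6.63 and VIT_214s0068g00920 by 5.20 on the log2 scale. The ratio of the summed FPKM of these 6 genes to that of the stilbene synthases was 0.188, 11.8 and 0.326 in the ripe control, between 3.37 and 7.19 in ABA1000 and between 33.5 and 50.0 in NAA100 at E-L 38.

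MYB14 (VIT_207s0005g03340) held 12.2, 1.29 and 13.2 FPKM in the ripe control libraries, so that its replicate 2 was low as well. In NAA100 it held 0.760, 1.17 and 0.903 FPKM at E-L 36 and 0.470, 1.16 and 0.411 FPKM at E-L 38, each below every control library of the stage. It was called lower at E-L 36 (log2 ratio −1.57, adjusted p = 0.0030 by limma) and at E-L 38 (log2 ratio −2.19 with SE 0.45, adjusted p = 6.7e-04 by limma). At E-L 38 MYB14 was no longer called without control replicate 1 (log2 ratio −1.79, adjusted p = 0.0102 by limma) or from the 6 libraries of the stage alone (adjusted p = 0.091 by limma). Unlike the stilbene synthases, MYB14 was not called between E-L 34 or E-L 36 and E-L 38 in the control, and it held 6.69, 9.96 and 5.84 FPKM at E-L 35, when stilbene synthases were scarce. In ABA1000 at E-L 38 it held 1.72, 2.60 and 1.65 FPKM, which was not called (log2 ratio −1.35, adjusted p = 0.050 by limma).

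VIT_205s0049g01020, annotated as related to Myb4, held 70.1, 24.7 and 46.0 FPKM in the ripe control and 15.6, 18.5 and 19.0 FPKM in NAA100 at E-L 38 (log2 ratio −1.25, adjusted p = 0.0037 by limma). This call was lost without control replicate 1 or 3, without NAA100 replicate 1 or 2 and when only these 6 libraries were fitted. Of 4 WRKY genes listed, 2 were tested. VIT_206s0004g07500 (probable WRKY 33) held 167, 92.9 and 137 FPKM in the ripe control and 44.4, 55.2 and 49.3 FPKM in NAA100 (log2 ratio −1.36, adjusted p = 8.3e-06 by limma). VIT_201s0010g03930 (probable WRKY 75) rose in the control between E-L 34 and E-L 38, where it held 45.4, 9.22 and 23.1 FPKM (log2 ratio 2.10, adjusted p = 1.5e-05 by limma). All 4 of the tested MYB and WRKY genes named here had their lowest ripe control value in replicate 2.

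**Figure D5:**
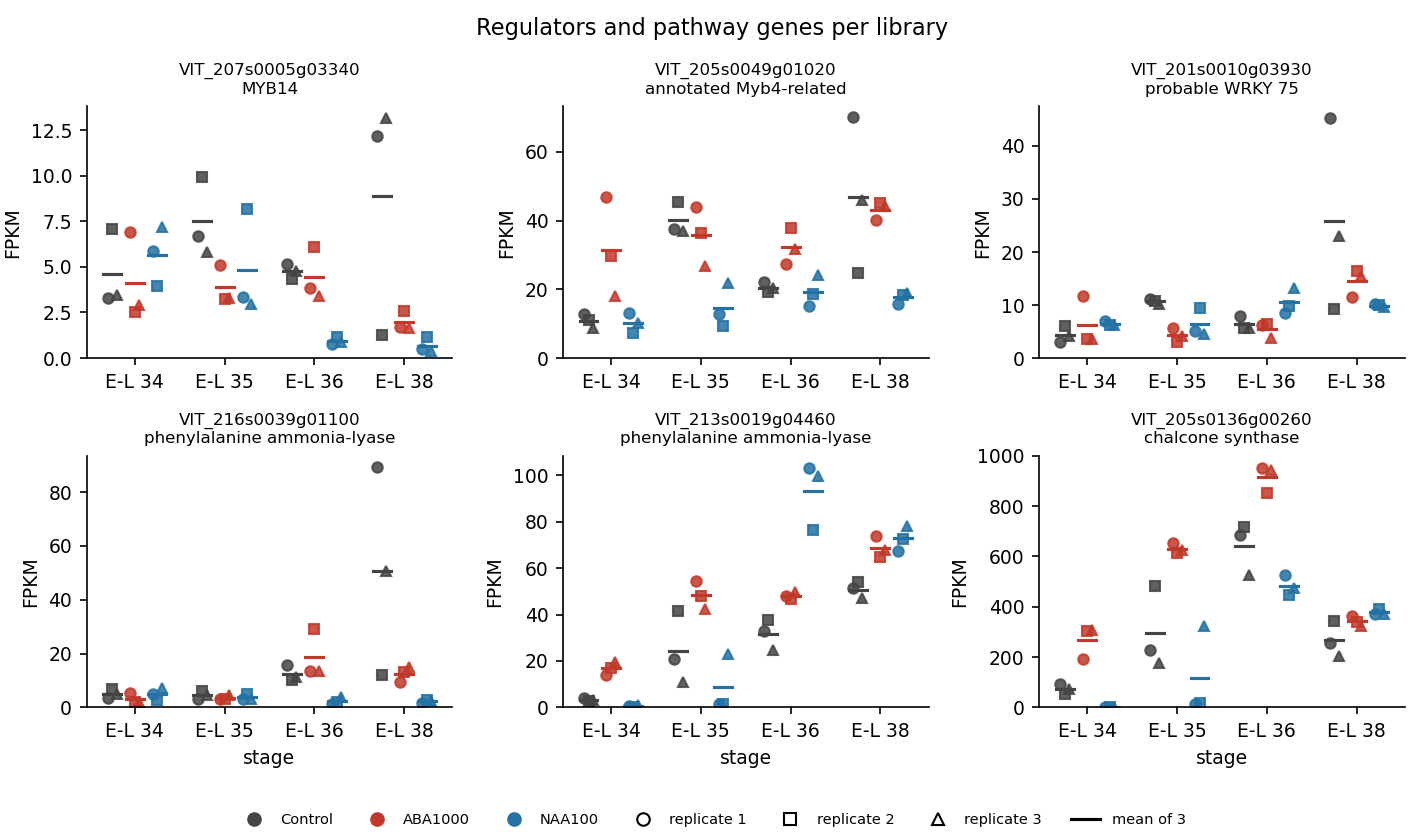
FPKM (vertical axes from 0) in each library by stage of 6 genes, with colours for the treatments, symbols for the replicate numbers and bars for the mean of 3. In the ripe control, replicate 2 is the lowest for MYB14 (1.29 FPKM), for VIT_205s0049g01020, for VIT_201s0010g03930 and for the PAL gene VIT_216s0039g01100 (12.01 FPKM), but not for the PAL gene VIT_213s0019g04460 and the chalcone synthase VIT_205s0136g00260.

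Genes of other stress-related families moved with the stilbene synthases only in part. Of 19 tested genes of the PR-10 list, 3 were called lower in NAA100 at E-L 38 (3.02% of all genes tested were). In the control between E-L 36 and E-L 38, 8 were called higher and 5 lower (9.47% and 7.76% of all genes tested). The list was taken by domain, so that it also holds genes annotated as MLP-like proteins. Of its tested VIT_205s0077 genes, all but VIT_205s0077g01670 had their lowest ripe control value in replicate 2. The PR-10 gene with the widest spread, VIT_205s0077g01540, rose in the control between E-L 34 and E-L 38 by 6.17 on the log2 scale (adjusted p = 7.5e-07 by limma). The most abundant gene of the list, VIT_201s0011g05110, is annotated as a hypothetical protein. It held 2814, 3254 and 1370 FPKM in the ripe control, highest in replicate 2. VIT_201s0011g05180 fell by 6.50 and VIT_201s0011g05170 fell by 6.08 on the log2 scale between E-L 34 and E-L 38 in ABA1000. They are annotated as MLP-like proteins 34 and 31. Of 17 tested chitinase genes, VIT_205s0094g00360 was called lower at E-L 38 in both ABA1000 (log2 fold change −2.36) and NAA100 (log2 fold change −3.05). The class IV chitinase VIT_205s0094g00340 held 4333, 4681 and 3097 FPKM in the ripe control, again not lowest in replicate 2. Between E-L 34 and E-L 38 in NAA100, VIT_205s0094g00340 and VIT_205s0094g00350 rose by 5.80 and 6.02, and VIT_205s0094g00360 fell by 5.38 on the log2 scale.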

How the data were processed

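The deposited table holds FPKM per gene and library that the authors computed from RNA-seq of berries. The paper states seed removal for its hormone and volatile assays but not for the RNA. The paper names TopHat for alignment and the submitters' processing notes name Bowtie, and reads were mapped to the grape genome of the CRIBI site. A version of that genome is named for another assay of the study, while for the RNA-seq the version and the counting tool are not given in the sources used here. The authors tested with DESeq2, which takes counts, and those were not used here. No per-library column was left out.

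Groups came from the sample labels, with 3 plot samples in each of 12 groups. Genes with at least 1 FPKM in at least 3 libraries were tested. Values of log2(FPKM + 1) were fitted with limma 3.58.1 (R 4.3.3), with empirical Bayes moderation and a mean trend, over 36 libraries with 24 residual degrees of freedom. P-values were two-sided and adjusted by Benjamini-Hochberg over all 17598 genes. Calls needed an adjusted p not above 0.01 and a log2 ratio of 1 or more in either direction. The fit was tested on simulated data. An exact permutation test of 3 against 3 libraries cannot go below 0.1 and was not used. Because FPKM are not counts, no count model was fitted, and the fragment steps give relative depth only.

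The members and lists were chosen with earlier results of these data known. Genes named are the 10 members with the highest mean, up to 3 called rises and 3 called falls with the largest change per comparison, MYB14, VIT_205s0049g01020, and per list the most abundant gene and up to 3 called genes with the largest change. Genes named beside these, such as single WRKY genes and members given as contrasts, were chosen after their values were seen. PAL genes were taken by Pfam domain and cinnamate 4-hydroxylase by description, because the KEGG identifiers intended for them matched no gene. Of the 40 members, 27 matched a RefSeq entry through a protein accession. Gene sequences were not used here. Alternatives were another pseudocount (0.1), no filter or a mean of at least 5 FPKM, other scalings, a replicate block, fits of 6 libraries and each library left out. Python 3.11.15, numpy 2.4.6, pandas 2.3.3, scipy 1.17.1 and matplotlib 3.10.9 were used.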

Additional observations from a re-analysis of the deposited data

Results flagged for a closer look

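By the interaction test of limma, the effect of NAA differed between E-L 36 and E-L 38 in 6 of 33 copies. Of all genes tested, 11.0% were called in the same direction, so that the count is not read as a trait of the family. For VIT_216s0100g01070 the effect changed by −4.04 on the log2 scale (standard error 1.08, limma adjusted p = 0.0023). For VIT_216s0100g00940 it changed by −3.08 (limma adjusted p = 0.0071). For VIT_216s0100g01100 it changed by −2.49 (limma adjusted p = 8.8e-04). This copy held at most 0.525 FPKM in the control at E-L 36, so that little of a fall could show there. Control replicates 1 and 3 at E-L 38 carry the high values behind these differences, and the count was 3 without either of them and 33 without control replicate 2.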

How the results depend on the processing

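No call of a member or named gene changed direction under any alternative run. Over 105 named results and 1494 settings, 1317 kept their side of the threshold, 143 lost it and 34 gained it. Of 4944 counts for the other gene lists, 4539 stayed within 1.5 times. In fits of the 6 libraries of a comparison alone, members called lower were 0 for ABA1000 and 0 for NAA100 at E-L 38 and 9 for NAA100 at E-L 36. Members called higher were 0 for both control comparisons ending at E-L 38, 6 for the control from E-L 35 to E-L 36 and 9 for ABA1000 between E-L 34 and E-L 38. With 0.1 added to the FPKM, the counts were 0 lower for ABA1000 at E-L 38, 6 lower for NAA100 at E-L 36, 8 higher for the control from E-L 36 to E-L 38, and 9 (ABA1000) and 2 (NAA100) higher between E-L 34 and E-L 38. With a mean of at least 5 FPKM only 7 members were tested, of which 0 (ABA1000) and 7 (NAA100) were lower at E-L 38, 6 and 7 were higher in the control against E-L 36 and E-L 34, 0 rose in ABA1000 from E-L 34, and 2 had a called NAA interaction from E-L 36 to E-L 38. Rescaling to TPM gave 1 lower for ABA1000 at E-L 38 and 6 higher for ABA1000 between E-L 34 and E-L 38. Without a filter, 1 ABA interaction from E-L 36 to E-L 38 was called. Without the control libraries of E-L 38, a setting chosen after seeing the data, 13 were lower for NAA100 at E-L 36, 9 higher for the control from E-L 35 to E-L 36, 21 higher for ABA1000 between E-L 34 and E-L 38, and 1 NAA interaction from E-L 35 to E-L 36 was called. Apart from the smaller fits and the stricter filter, the cause of these shifts was not tested.

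With each library left out in turn, counts ranged from 0 to 33 lower for ABA1000 and from 25 to 33 lower for NAA100 at E-L 38, from 5 to 33 higher for the control against E-L 36, from 31 to 33 against E-L 34, and from 1 to 5 higher for ABA1000 between E-L 34 and E-L 38. The interactions from E-L 36 to E-L 38 ranged from 0 to 32 for ABA and from 3 to 33 for NAA. The log2 difference of summed FPKM from the control ranged, for ABA1000, from −1.31 to 0.24 at E-L 34, from −0.89 to −0.20 at E-L 35, from −0.30 to 0.43 at E-L 36 and from −3.78 to −0.97 at E-L 38. For NAA100 it ranged from −0.38 to 0.31, from −1.03 to −0.33, from −3.03 to −1.70 and from −6.59 to −3.78 at the same stages. Over the chromosome 10 copies alone it was −2.46 for NAA100 at E-L 34 and −0.87 at E-L 36. Under median-of-ratios scaling, 4 in place of 7 copies were lower without overlap in ABA1000 at E-L 35.

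Libraries with the same replicate number did not deviate together (median r 0.018 over 198 pairs, −0.0073 over 396 pairs of different numbers), so the numbers pair nothing. A replicate block left 39 of 40 counts as they were and moved the ABA1000 count at E-L 38 from 3 to 1. Values near 1 fragment limit what can be said of the weakest copies.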
